A study of Mus musculus with 40 samples.

Results

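DTL2 is one of the classes that the authors gave to nuclei of mouse kidney, a class of the descending thin limb of the loop of Henle. Its members are the nuclei that carry the name DTL2 in the coarser of the 2 deposited class columns, and each of them carried it in the finer column as well. They were 127 of 16500 nuclei (0.770%), with 50 from sham mouse 1, 11 from sham mouse 2, 46 from nephrectomised mouse 1 and 20 from nephrectomised mouse 2. No DTL2 nucleus shared its barcode with a nucleus of another library, whereas 36 of all nuclei did.

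The study removed the left kidney of male C57BL/6 mice aged 8 to 12 weeks (unilateral nephrectomy, UNx) or operated without removing it (sham), and measured gene expression in the right kidney that remained. No transgene or further treatment is named in the labels. Single-nucleus RNA-seq at 24 h covered 2 sham and 2 UNx mice, and the labels put the mice numbered 1 in batch 3 and those numbered 2 in batch 4. Bulk RNA-seq of polyadenylated RNA covered 6 sham and 6 UNx mice at each of 24, 48 and 72 h.

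The descending thin limb carries tubular fluid from the end of the proximal tubule down into the medulla. Those of its cells that hold the channel aquaporin 1 pass water through it, so that the fluid is concentrated as the surrounding tissue becomes saltier. Some descending limb cells hold the urea transporter UT-A2, a product of Slc14a2, which takes part in recycling urea within the medulla.

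Depth per nucleus in DTL2 was alike in the 4 mice. The median nucleus had 5854 unique molecular identifiers (UMI, one per captured transcript) in sham 1, 6144 in sham 2, 6030.5 in UNx 1 and 5961 in UNx 2. Summed over nuclei, the class held 291994, 84624, 294794 and 161226 UMI in the same order, so sham 2 was the shallowest mouse. One nucleus of UNx 2 had 31969 UMI, against 14621 for the next, and made up 19.8% of that mouse's sum. It was the only DTL2 nucleus above 3 times its mouse's median. Levels below are UMI of all DTL2 nuclei of a mouse, scaled to counts per 1000000 UMI of that sum (CPM), always in the order sham 1, sham 2, UNx 1, UNx 2.

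Some RNA of other compartments in the DTL2 sums differed by batch. Mitochondrially encoded RNA was 0.943% in sham 1 and 1.54% in UNx 1, but 7.02% in sham 2 and 10.7% in UNx 2. The summed level of 16 proximal tubule markers was 4553, 13489, 7387 and 18477 CPM, and that of 10 thick ascending limb markers was 370, 1546, 415 and 2695 CPM. Both mice of batch 4 lay above both mice of batch 3 in these 3 measures, and within each batch the UNx mouse lay above the sham mouse. Distal convoluted and connecting tubule markers (9 genes) summed to 652, 2041, 462 and 999 CPM and 10 principal cell markers to 58.2, 715, 64.4 and 402 CPM, so batch 4 was again higher, but the UNx mouse was below the sham mouse in both batches for the former and in batch 4 for the latter. Podocyte markers summed to 244, 337, 163 and 315 CPM, endothelial markers to 178, 61.4, 57.6 and 181 CPM and adipocyte markers to 78.8, 11.8, 23.7 and 213 CPM; the last 2 followed neither batch nor group. All 16 proximal markers had UMI in at least 1 mouse, and of the thick limb markers Cldn14 was at 0 in every mouse. Slc34a1, the phosphate carrier of the proximal tubule, was at 89.0, 962, 146 and 1841 CPM, and 133 of its 297 UMI in UNx 2 lay in the large nucleus. The 10 markers of intercalated cells summed to 80.6 CPM or less and 9 of fibroblasts to 37.2 CPM or less in every mouse. The 12 macrophage and lymphocyte markers summed to 247, 155, 302 and 149 CPM, higher in batch 3, and in each mouse above the 108, 115, 101 and 97.1 CPM of all nuclei. Of these 12, 7 (Ptprc, C1qa, Mrc1, Cd3e, Cd4, Cd8a and Cd79a) were at 0 in all 4 mice, while Csf1r was at 106, 35.5, 112 and 86.8 CPM and Skap1 at 127, 59.1, 170 and 25.0 CPM. Whether doublets were removed before deposit is not given in the sources used here.

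**Figure D1:**
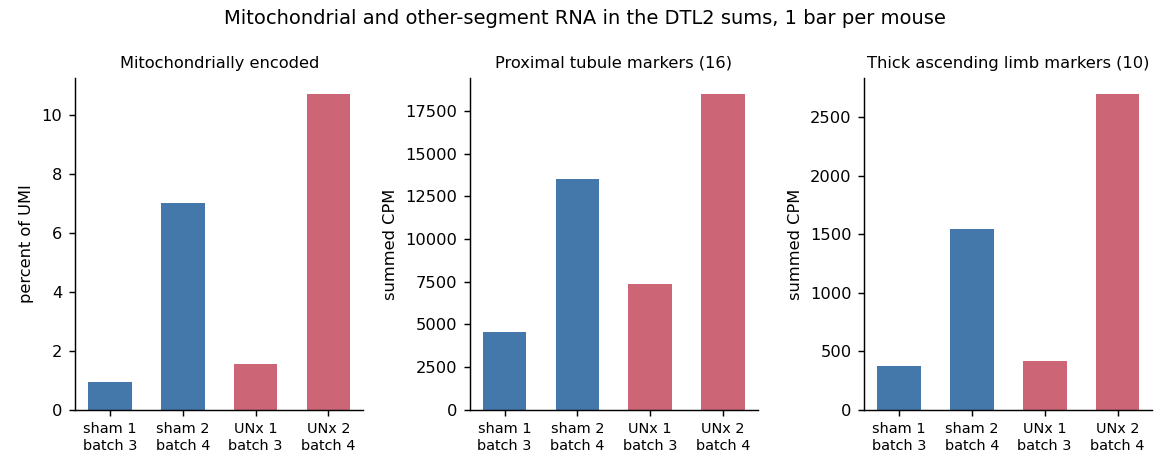
Mitochondrially encoded RNA (percent of UMI) and the summed CPM of proximal tubule and thick ascending limb markers in the DTL2 sum of each mouse, one bar per mouse. The batch 4 mice, sham 2 and UNx 2, are the 2 highest in all 3 panels.

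Of the 2 genes used as markers of the class, Aqp1 matched the name and Slc14a2 did not. Aqp1 was at 353, 254, 370 and 249 CPM in DTL2. Its mean of 306 CPM was the highest of the 23 classes with at least 10 nuclei in each mouse, followed by DTL3-ATL with 238 CPM and PTS3, a proximal tubule class, with 93.2 CPM. In each mouse DTL2 lay above every other class, by 0.24, 0.44, 0.36 and 0.47 on the log2 scale. Aqp1 UMI were found in 105 of 127 DTL2 nuclei (82.7%, exact Clopper-Pearson 95% interval 75.0 to 88.8%), against 17.6% in the class CPC, which had the highest mean of the collecting duct channel Aqp3 (78.2 CPM). The median depths of the 2 classes were 5907 and 6288 UMI, and with every nucleus thinned to 2500 UMI the shares were 52.0% and 7.03%. In DTL3-ATL the share was 58.0%, and 40.8% when thinned, so Aqp1 set DTL2 less apart from that class. DTL1 had only 42.0, 35.8, 20.8 and 83.5 CPM of Aqp1.

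Slc14a2 was at 83.9, 35.5, 68.5 and 58.8 CPM in DTL2, which rested on 24, 3, 20 and 9 UMI. The class with the highest mean was MPC with 11412 CPM, and DTL1, another descending thin limb class, had 2883 CPM. Slc14a2 UMI were found in 24 of 127 DTL2 nuclei (18.9%, exact interval 12.5 to 26.8%) and in 17.9% of the nuclei of the proximal class PTS1, whose median depth was 10874 UMI. At 2500 UMI per nucleus the shares were 7.09% and 5.8%, and 53.5% in DTL1. The comparison with PTS1 differed by batch. In batch 3, DTL2 was above PTS1, with 14.0% of nuclei (exact interval 5.82 to 26.7%) against 4.80% in sham 1 and 19.6% (9.36 to 33.9%) against 7.92% in UNx 1, and the PTS1 levels were 5.53 and 7.66 CPM. In batch 4, it was below PTS1, with 18.2% against 44.8% in sham 2 and 30.0% against 31.4% in UNx 2, and the PTS1 levels were 122 and 80.0 CPM. The Slc14a2 level of DTL2 was thus above that of PTS1 only in the batch 3 mice, and in each mouse far below DTL1, where the lowest mouse had 1752 CPM. The class is described below by its leading genes. Intervals cover counting error only.

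**Figure D2:**
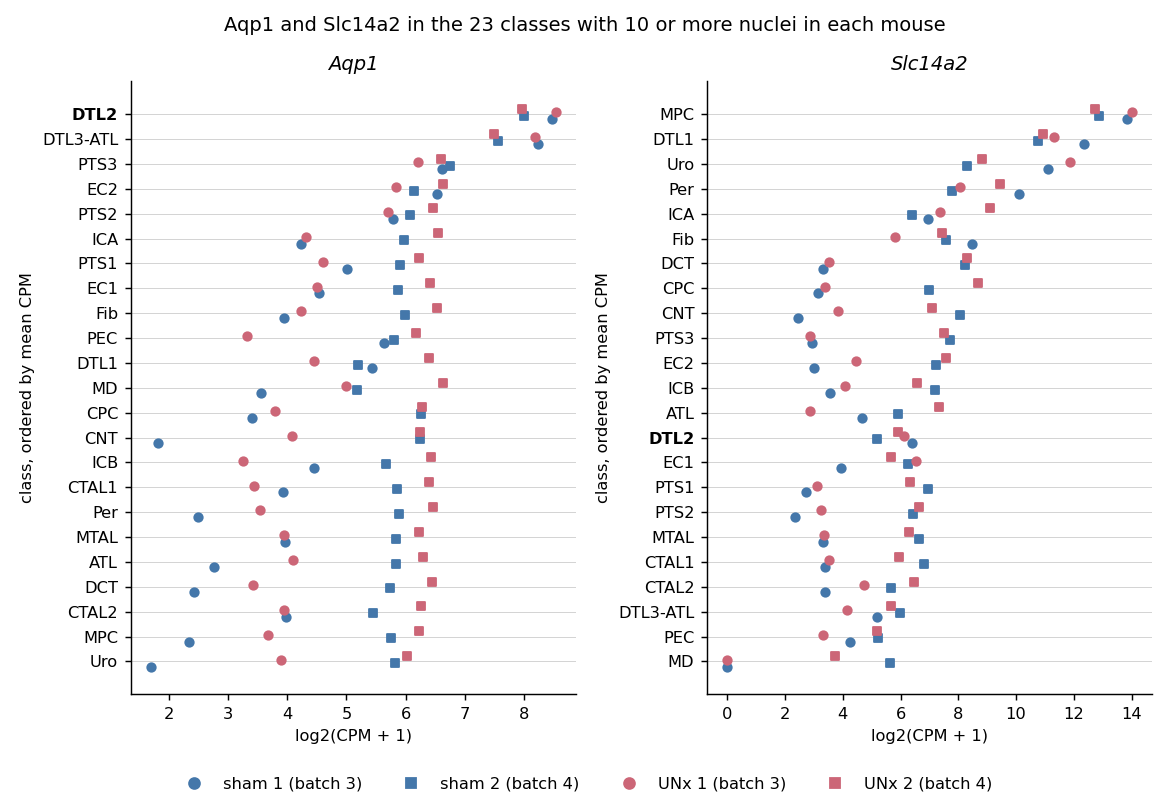
Level of Aqp1 and Slc14a2 (CPM) in 23 classes, one point per mouse. DTL2 has the highest Aqp1 level in each mouse, while its Slc14a2 level stays between 35.5 and 83.9 CPM and that of DTL1 is far above it.

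The genes that set DTL2 apart were taken as the 20 with the largest ratio to the highest of 22 other classes, using for each gene the mouse where that ratio was smallest. Among 7254 genes with a mean of at least 20 CPM in DTL2, 50 were higher there than in all 22 other classes in every mouse. The 20 genes were Fst, 4932435O22Rik, Stk32a, Ackr3, Cdh13, Slc4a11, Rassf8, Rbfox1, Plk5, Nampt, Nt5c3b, Gm17029, Ccnjl, Dio1, Apela, Sema5a, Gm34397, Creb5, Galnt18 and Gna13. Since the classes were built from these same nuclei, the levels are a description with no test. The smallest log2 ratio was 0.44 for Gna13, the last gene inside the list, and also 0.44 for Slc22a23, the first outside it, followed by Clic4 with 0.42. Leaving out 1 mouse at a time kept 15 to 19 of the 20. Gm17029 is annotated as antisense, and whether the counting used strand is not given in the sources used here.

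The secreted proteins and ligands of the list were led by Fst, which encodes follistatin, a protein that binds and blocks activins. Fst lies on chromosome 13 from 114452290 to 114458951 (minus strand, GRCm38). It was at 1579, 1002, 1109 and 409 CPM in DTL2, and the next class by mean, DTL3-ATL, had 21.4 CPM. The lowest DTL2 mouse, UNx 2, was still above every other class by 3.81 on the log2 scale or more. UMI of Fst lay in 44 of 50, 9 of 11, 35 of 46 and 15 of 20 nuclei. DTL2 held 90.4% and 84.5% of all Fst UMI in sham 1 and UNx 1, but only 32.0% and 29.0% in sham 2 and UNx 2. In the batch 4 mice, the remainder was spread over other tubule classes, with CNT, PTS1 and DTL3-ATL next in sham 2 and DCT, CTAL1 and PTS1 next in UNx 2. Apela, a peptide ligand of the apelin receptor, was at 479, 177, 475 and 161 CPM, with both batch 3 mice above both batch 4 mice.

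Surface and adhesion proteins followed. Cdh13, or T-cadherin, an adhesion protein held to the membrane by a lipid anchor, was at 3485, 1314, 3863 and 1248 CPM. The next class, Fib, had 559 CPM, and DTL1 had 11.0 CPM. Cdh13 lies on chromosome 8 from 118283733 to 119324921 (plus strand). Ackr3, a receptor that takes up and removes the chemokine CXCL12, was at 963, 778, 1065 and 726 CPM, against 149 CPM in CPC and 49.6 CPM in DTL3-ATL. Its 4 mice spread less than those of Cdh13 or Fst. Sema5a, a membrane-bound guidance protein of the semaphorin family, was at 2762, 1462, 2732 and 1116 CPM, and DTL3-ATL and DTL1 had 919 and 729 CPM. Sema5a was thus also present at high levels in both other descending limb classes.

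Among transporters, Slc4a11, a solute carrier of the bicarbonate transporter family, was at 373, 484, 427 and 490 CPM, against 116 CPM in DTL3-ATL and 15.4 CPM in DTL1. Here both batch 4 mice lay above both batch 3 mice. Bst1, an enzyme of the cell surface that acts on NAD and was on the thin limb list rather than among the leading 20, had its highest mean in DTL2 (162 CPM), but DTL3-ATL (135 CPM) and DTL1 (129 CPM) were near it. Slc9a3, the sodium-proton exchanger NHE3, was at 928, 418, 617 and 298 CPM in DTL2 and only between 45.9 and 64.3 CPM on average in DTL1, DTL3-ATL and ATL. Its mean of 565 CPM was second only to that of CTAL1 (606 CPM). Cldn2, a claudin that lets cations and water pass between cells, was at 54.8, 138, 54.3 and 75.0 CPM, the highest mean of the 23 classes (80.4 CPM).

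Regulators of RNA and signalling made up much of the rest. Rbfox1, a splicing factor best known from neurons and muscle, was at 7437, 3739, 9122 and 3800 CPM, against 1760 CPM in CPC and between 25.7 and 65.5 CPM in the other thin limb classes. Stk32a, a serine/threonine kinase, was at 1347, 826, 1038 and 390 CPM, and DTL1 followed with 97.6 CPM. Rassf8, a protein with a Ras-association domain, was at 661, 591, 780 and 527 CPM against 190 CPM in CTAL2. Creb5, a transcription factor of the CREB family, was at 322, 284, 508 and 197 CPM, Nampt, which makes the precursor of NAD, at 644, 331, 363 and 331 CPM, and Gna13, the alpha subunit of a G protein, at 178, 282, 292 and 157 CPM.

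**Figure D3:**
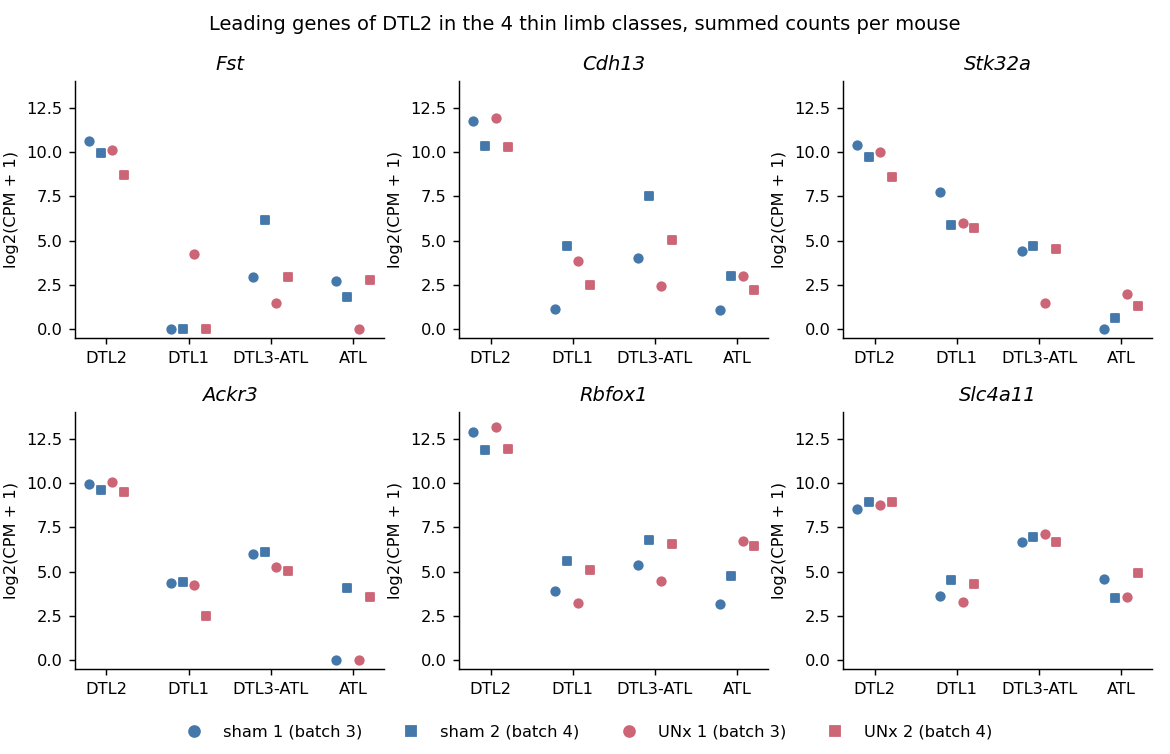
Level of 6 leading genes as log2(CPM + 1) in DTL2, DTL1, DTL3-ATL and ATL, one point per mouse. For each gene the 4 DTL2 points lie above all points of the other 3 classes, and for Fst and Stk32a UNx 2 is the lowest DTL2 mouse.

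Leading genes were also counted in single nuclei, with 5 genes of the list taken: Fst, Cdh13, Stk32a, Ackr3 and Rbfox1. The list was chosen for high levels in these same nuclei, so finding them together is a description with no test. Their joint presence was not counted in other classes. Of the 127 nuclei, 123 had UMI of at least 3 of the 5, 76 had UMI of all 5 and none lacked all 5. The 4 nuclei with fewer than 3 were 1 of sham 1 and 3 of UNx 2. Aqp1 was found in 105 nuclei and Fst in 103, both were found in 85, and 4 had neither.

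Several genes that were high in other thin limb classes were lower in DTL2. Corin, a serine protease that averaged 1785 CPM in DTL1, was at 12.4 CPM or less in every DTL2 mouse. Epha7, an ephrin receptor, averaged 168 CPM in DTL2 against 1019 CPM in DTL3-ATL. Akr1b3, the aldose reductase that makes sorbitol in salty surroundings, averaged 176 CPM in DTL2, 1212 CPM in DTL3-ATL and 2206 CPM in ATL. Slc6a6, the carrier of the osmolyte taurine, was at 1302, 1427, 1425 and 1317 CPM, second among 23 classes to PEC (1503 CPM). DTL2 thus ranked 2 of 23 classes for Slc6a6 and 8 of 23 for Akr1b3.

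The first question on surgery was whether DTL2 nuclei became more or less frequent. They were 0.936% (exact 95% interval 0.695 to 1.23%) of nuclei in sham 1, 0.417% (0.208 to 0.744%) in sham 2, 0.893% (0.655 to 1.19%) in UNx 1 and 0.594% (0.363 to 0.916%) in UNx 2. The ranges of sham and UNx overlapped, and the means were 0.676% ± 0.367 and 0.744% ± 0.211 (SD, n = 2 mice each). The ratio of UNx to sham was 1.10, with 0.954 in batch 3 and 1.43 in batch 4, and 1.79 without sham 1. Among thin limb nuclei alone, DTL2 made up 19.5, 10.4, 16.0 and 10.6%. In batch 4, other thin limb classes were also a larger share of all nuclei in UNx than in sham. The shares in sham 2 and UNx 2 were 0.757 and 0.832% for DTL1, 1.14 and 1.60% for DTL3-ATL, and 1.70 and 2.58% for ATL. With 2 mice against 2, no exact permutation test can give a two-sided p below 0.333.

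Gene expression in DTL2 was then compared between UNx and sham over the summed counts of the 4 mice. Of 4817 genes tested, edgeR's quasi-likelihood test called none higher and none lower at an adjusted p under 0.05 (0% in both directions), and the smallest adjusted p was 1.00. At an unadjusted p under 0.05 there were 34 genes (0.706%). With the batch as a block, since the labels pair the mice by batch, again none was called, the smallest adjusted p was 0.257 and 217 genes (4.50%) had an unadjusted p under 0.05. DESeq2 also called 0 (5 genes unadjusted) and limma voom 0 (91 unadjusted). The 2 UNx mice lay above both sham mice in 10.0% of genes and below both in 14.1%. The test rests on few nuclei: leaving out UNx 1 gave 25 calls, and leaving out any other mouse gave none. Among those 25 were Slc13a3, Pdzk1, Slc17a3 and Cyp2j5, genes of the proximal tubule, Errfi1 (2.32 on the log2 scale) and mt-Nd4l on the higher side. This setting sets UNx 2, the mouse with the highest mitochondrial and proximal marker levels, against both sham mice, and the lone UNx mouse is assumed to vary like the sham mice.

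Genes at the head of each direction by p are given as values, none of them called. Only genes whose groups did not overlap could be chosen, so that separation follows from the choice. Runx1, a transcription factor, was at 20.5, 0, 224 and 86.8 CPM. The log2 fold change was 3.43 ± 0.88 (SE, n = 2 mice per group, edgeR adjusted p = 1.00, and 0.257 with the block). Its UMI were few and unevenly placed: 35 of 66 in UNx 1 lay in 1 nucleus, and all 14 in UNx 2 lay in another. Errfi1, a feedback inhibitor of the EGF receptor, was at 165, 107, 309 and 665 CPM, and it was found in 26 of 50, 6 of 11, 23 of 46 and 17 of 20 nuclei. The log2 fold change of Errfi1 was 1.88 ± 0.54 (edgeR adjusted p = 1.00). Of the 107 Errfi1 UMI in UNx 2, 28 lay in the large nucleus and 33.9 in another nucleus. In UNx 1, 1 nucleus held 23 of 91.2 Errfi1 UMI. Without the large nucleus, Errfi1 was at 612 CPM in UNx 2, with the other nucleus kept.

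Kcnk5, the acid-sensitive potassium channel TASK-2, was at 85.6, 130, 217 and 285 CPM, a log2 difference of 1.33 ± 0.46. Caprin1, which binds RNA and takes part in stress granules, was at 103, 106, 214 and 192 CPM. Ddah1, an enzyme that breaks down inhibitors of nitric oxide synthase, was at 74.8, 88.6, 209 and 148 CPM. Kcnk5 was found in 14, 5, 24 and 14 nuclei, with 15.9 of its 45.9 UMI in UNx 2 in the large nucleus. That nucleus also held 9 of 31 Caprin1 UMI in UNx 2, and 1 nucleus held 18 of 61.7 Ddah1 UMI in UNx 1. Adamts9, a secreted metalloprotease, was at 17.1, 35.5, 136 and 68.2 CPM, but 32 of its 40 UMI in UNx 1 came from 1 nucleus. The other genes of this group were Gna12, Ugt8a, Eef1g, Agps, Gpm6a and Pitpnc1, with log2 differences from 1.11 to 2.36.

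On the lower side, Plxna4, a semaphorin receptor, was at 116, 118, 40.7 and 18.6 CPM, a log2 difference of -1.87 ± 0.58 (edgeR adjusted p = 1.00). Foxj3, a forkhead factor, was at 160, 191, 67.8 and 55.8 CPM. Kcnq1, a voltage-gated potassium channel, was at 209, 343, 122 and 109 CPM, a log2 difference of -1.15 ± 0.43. The 2 potassium channels Kcnk5 and Kcnq1 thus lay on opposite sides, both without an adjusted call. Scp2, a carrier of sterols and fatty acids in peroxisomes, was at 444, 439, 265 and 170 CPM, and Me3, the mitochondrial malic enzyme, at 174, 328, 108 and 90.7 CPM. Mipol1, Trnp1, Ermard, Slc10a7, Polr3e, Eif2a and Vti1b made up the rest, with log2 differences from -2.43 to -1.25.

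**Figure D4:**
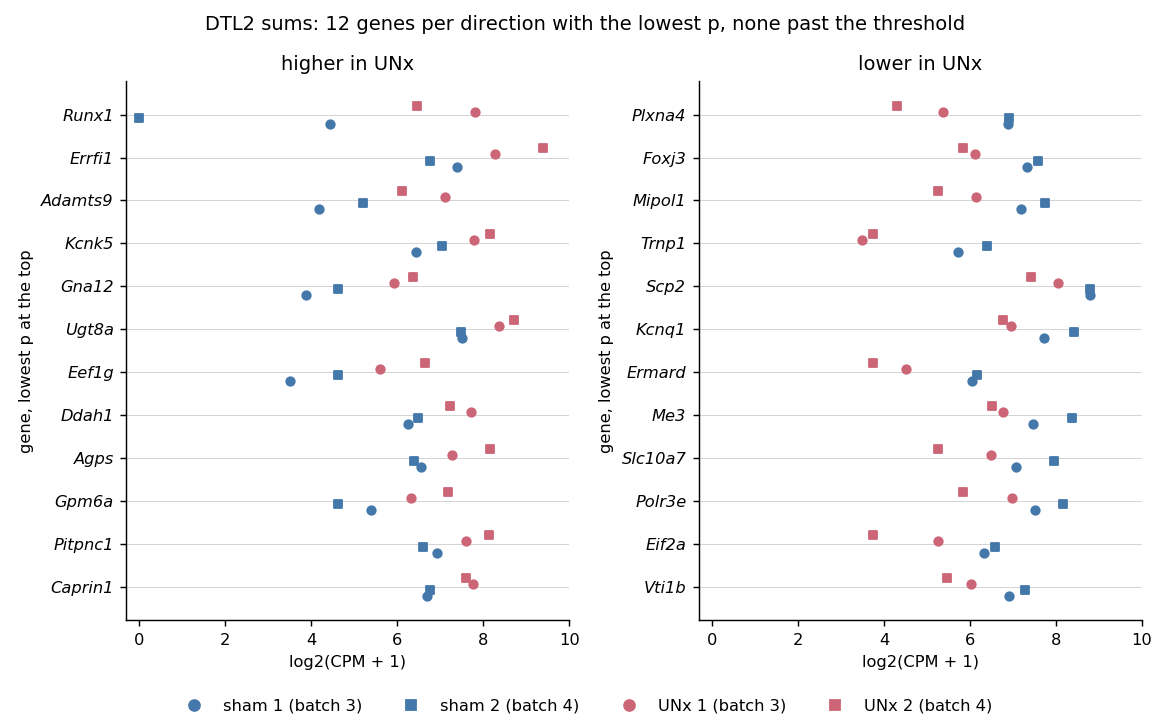
CPM in DTL2 of the 12 genes with the lowest p on the higher side and the 12 on the lower side, one point per mouse. The UNx and sham points of each gene do not overlap, as the choice of genes required, and none of the 24 has an adjusted p below 1.00.

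No leading gene was called. They were chosen by their lowest ratio over all 4 mice, so a gene much lower in UNx could hardly enter the list, and their counts are a description. Of the 20, 17 had enough counts to be tested, 8 with a positive and 9 with a negative log2 fold change and a median of -0.03, against 0.02 over all tested genes. Cdh13, Rbfox1, Ackr3 and Slc4a11 differed by 0.10 ± 0.70, 0.23 ± 0.70, 0.08 ± 0.37 and 0.17 ± 0.37 (SE). Fst differed by -0.75 ± 0.52, and by -0.79 ± 0.22 with the batch as a block (edgeR adjusted p = 0.901), with lower CPM in the UNx mouse of both batches. The long noncoding RNA 4932435O22Rik, with the lowest p of the list and the only one whose groups did not overlap, was at 65.1, 154, 50.9 and 12.4 CPM, or 19, 13, 15 and 2 UMI (-1.56 ± 0.78, edgeR adjusted p = 1.00). Stk32a differed by -0.59 ± 0.51, and by -0.62 ± 0.22 with the block (adjusted p = 0.998), likewise lower in both batches. The 11 tested genes of the 18 on the thin limb list, with Aqp1 (0.04 ± 0.37) and Bst1 (0.14 ± 0.40) among them, had a median of 0.04.

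Of the 11 water and urea channel genes, 4 were tested with a median of 0.03, and Avpr1a was at 0 in every mouse. In the osmolyte and tonicity list 12 of 20 were tested, 7 on the higher and 5 on the lower side. Nfat5, the transcription factor of the response to tonicity, was at 1505, 698, 1315 and 1061 CPM, and Slc6a6 differed by 0.06 ± 0.38. Hsph1, a chaperone that also responds to tonicity, was at 127, 106, 210 and 193 CPM (0.82 ± 0.39), the lowest p of the list. Of 32 ion transport and tight junction genes 19 were tested with 11 on the higher side, and of 35 patterning factors 17 with 9 on the higher side. The patterning gene with the lowest p was Id3, an inhibitor of helix-loop-helix factors, at 123, 70.9, 50.9 and 6.2 CPM.

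Lists of growth and stress likewise held no call. None of 25 mitosis genes had enough counts to be tested, their UMI summed to 13, 7, 2 and 8, and 1 nucleus of 127 (in sham 1) had UMI of 3 or more of them. One of 32 DNA replication genes was tested, Pola1, at -0.10 ± 0.78. Of 36 genes of G1 entry and growth 17 were tested, with 8 on the higher side and a median of -0.04. Immediate early genes were tested for 3 of 24, 1 on the higher and 2 on the lower side (median -0.63, -0.60 with the block). Jund, with the lowest p of these, was at 20.5, 11.8, 49.2 and 83.0 CPM. Injury genes were tested for 5 of 22 (median 0.90, 0.61 with the block), Anxa2 with 30.8, 23.6, 78.0 and 62.0 CPM. Without UNx 1, 7 injury genes had a median of -0.57, so the sign of this median depended on that mouse. In the unfolded protein response 11 of 24 were tested, 8 on the higher side with a median of 0.53, and among NRF2 targets 10 of 18, 9 on the higher side with a median of 0.46. Txnrd1, a thioredoxin reductase and NRF2 target, was at 28.3, 41.4, 61.1 and 115 CPM.

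Medians of the metabolic and timing lists lay between -0.09 and 0.20. Fatty acid oxidation had 20 of 24 genes tested, 13 on the higher side (median 0.08), cholesterol synthesis 6 of 26, 4 on the higher side (median 0.14), and hypoxia response 13 of 24, 10 on the higher side (median 0.20). Glucocorticoid response had 7 of 24 tested with 4 on the higher side, Errfi1 again having the lowest p, and clock genes 9 of 19 in the table with 4 on the higher side. Of the 13 mitochondrially encoded genes all 11 tested were on the higher side, with a median of 0.87 (0.72 with the block). This was not particular to DTL2. The mitochondrial share was higher in UNx within each batch in all nuclei too (0.603, 5.05, 0.924 and 7.36%). DTL1 (1.03, 6.39, 1.70 and 10.7%) and DTL3-ATL (0.844, 6.19, 1.53 and 10.3%) ran the same way. In bulk at 24 h the share was 21.5 to 24.9% in UNx against 23.5 to 26.7% in sham. mt-Nd1, a subunit of complex I, was at 414, 1865, 768 and 3762 CPM, and its groups overlapped, with the UNx mouse above the sham mouse in each batch. Proximal tubule markers had 15 of 16 on the higher side with a median of 1.04 (0.80 with the block), and thick limb markers 4 of 5 tested with a median of 0.89. Distal convoluted and connecting tubule markers had 0 of 5 tested on the higher side (median -0.55, -0.58 with the block) and principal cell markers 0 of 3 (median -0.23). Without UNx 1 these 2 medians were -0.05 and 0.66. The part of mitochondrial RNA and of RNA of other segments in the lists above was not tested. DESeq2 with the block called 1 gene, the mitochondrially encoded mt-Co2, at a log2 fold change of 0.87.

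Differences of the UNx effect between DTL2 and other nuclei were tested with mouse sums of both classes in 1 fit. Against DTL1 no gene of 6263 was called in either direction (0%, 231 with an unadjusted p under 0.05), and against ATL none of 7481 (0%, 169 unadjusted). Against DTL3-ATL, 2 of 6956 genes had a more positive effect in DTL2 (0.0288%), and against all other nuclei 4 of 18151 (0.0220%). No gene had a more negative effect in these 2 comparisons. DESeq2 called none in any of the 4 comparisons, with 41, 38, 40 and 119 unadjusted for DTL1, ATL, DTL3-ATL and all other nuclei. With the batch as a block 22 genes were called against DTL1, 16 more positive (0.255%) and 6 more negative in DTL2 (0.0958%), and 4 against ATL, all more negative (0.0535%). Against DTL3-ATL the block gave 10 more positive (0.144%) and 1 more negative (0.0144%), and against all other nuclei 10 more positive (0.0551%) and 2 more negative (0.0110%). These block fits hold nearly as many terms as mouse sums. Their p-values therefore rest mainly on a spread shared over genes, and little on the spread of the single gene between mice.

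The 2 genes called against DTL3-ATL were Runx1 and Gm42397. Runx1 was at 76.4, 10.6, 31.6 and 20.3 CPM in DTL3-ATL, so the groups overlapped there while they did not in DTL2. The difference was 4.47 ± 0.84 on the log2 scale (edgeR adjusted p = 0.0489, 0.00034 with the block). This call was lost without sham 1 (adjusted p = 0.488), without sham 2 (0.0711), without UNx 1 (0.175), with the large nucleus left out (0.280) and with DESeq2's size factors (0.0684). Runx1 had no UMI in that nucleus, and the difference without it was 4.61. The predicted gene Gm42397 was at 17.1, 47.3, 27.1 and 377 CPM in DTL2, with 23.8 of its 60.8 UMI in UNx 2 in the large nucleus, and its call (3.47 ± 0.63, edgeR adjusted p = 0.0489) was lost without sham 2 (1.00), without UNx 2 (0.585) or without that nucleus (0.534).

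The 4 genes called against all other nuclei were Keg1, Slc5a12, Aoah and St8sia1. Keg1, a gene of the proximal tubule marker list, was at 92.5, 405, 67.8 and 379 CPM in DTL2 with overlapping groups. All other nuclei, the proximal tubule classes among them, had 4270, 3177, 576 and 676 CPM of Keg1. The groups were thus apart there and not in DTL2. The difference was 2.45 ± 0.50 (edgeR adjusted p = 0.0174), and it was lost without sham 1 (1.00), sham 2 (0.0598) or UNx 2 (1.00) and with the large nucleus left out (0.0983). Slc5a12, a lactate carrier of the proximal tubule, was at 17.1, 53.2, 33.9 and 177 CPM in DTL2 and at 1597, 810, 879 and 424 CPM in other nuclei, with a difference of 2.84 ± 0.64 (edgeR adjusted p = 0.0472). Of its 28.5 UMI in UNx 2, 19 lay in the large nucleus, and the adjusted p was 1.00 without that nucleus, without sham 1 and without UNx 2, and 0.135 without sham 2. Aoah and St8sia1 had no UMI in the DTL2 nuclei of either sham mouse. They had 4.43 and 2 in UNx 1 and 15.6 and 20.6 in UNx 2, of which 8.64 and 9.02 lay in the large nucleus, and both calls were lost without either sham mouse, without UNx 2 or without that nucleus.

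With the batch as a block, proximal tubule markers were among the calls more positive in DTL2. Slc5a12, Slc13a3 and Slc34a1 were called against DTL1, and Slc13a3, Slc34a1 and Keg1 against DTL3-ATL. In DTL1, Slc5a12 was at 34.4, 463, 20.8 and 52.1 CPM (difference 3.73 ± 0.79, edgeR adjusted p = 0.00397). The part of other-segment RNA in these calls was not tested. Calls made only with the block also included 3 leading genes, Cdh13, Rbfox1 and Creb5. Cdh13 had a more positive effect in DTL2 than in DTL3-ATL, where it was at 15.4, 183, 4.38 and 31.6 CPM (difference 2.36 ± 0.51, edgeR adjusted p = 0.00332). Within each batch Cdh13 was lower in the UNx mouse of DTL3-ATL, at a low level, while the DTL2 sums of a batch were close. Rbfox1 had a more negative effect than in ATL, where it was at 7.92, 25.8, 105 and 86.9 CPM (difference -2.40 ± 0.37, edgeR adjusted p = 7.49e-07), so the groups did not overlap in ATL, at a low level. Creb5 had a more negative effect than in DTL1, where it was at 3.82, 0, 95.1 and 16.3 CPM (difference -4.09 ± 1.01, adjusted p = 0.0221). Errfi1 had a more positive effect than in DTL1 (1.93 ± 0.45, adjusted p = 0.0114), DTL3-ATL (2.06 ± 0.42, adjusted p = 0.00142) and all other nuclei (1.52 ± 0.31, adjusted p = 0.00476). In the same order, edgeR without the block gave 1.89, 2.00 and 1.67 for Errfi1, with adjusted p of 1.00, 0.249 and 0.489. With the large nucleus left out and the block kept, Cdh13 (adjusted p = 0.000224), Rbfox1 (0.0249) and Errfi1 against DTL3-ATL (0.000549) and all other nuclei (0.00253) were still called. Creb5 (0.0813) was not, nor was Errfi1 against DTL1, where 3 genes were called in all. Large nuclei of the other classes were kept in these fits. The highest in sham 2 had 63889 UMI in DTL1 and 42745 UMI in DTL3-ATL. Phactr1, a regulator of protein phosphatase 1 and actin, had a more negative effect in DTL2 in all 4 comparisons with the block. Its DTL2 level was 6.85, 730, 0 and 93.2 CPM, and 38.2 of its 61.8 UMI in sham 2 lay in 1 nucleus.

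Bulk libraries from other mice show the leading genes over time, in RNA of the whole kidney. There, fewer cells of a type and less RNA per cell cannot be told apart, and each gene is also read from other classes. The 36 libraries held 14.9 to 24.1 M counts. The share of mitochondrially encoded counts moved with the comparison at 48 h, where UNx replicates 1 to 5 had 25.8 to 26.4% while UNx replicate 6 had 15.2% and sham 14.0 to 15.5%. The fits were therefore repeated with that share as a covariate.

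At 24 h, 1 of 17 tested leading genes was called higher and 3 lower, when 14.2% of all 14104 genes were called higher and 13.1% lower. The 4 of 17 called were thus no larger a share than the 27.3% of all genes. Gna13 had CPM from 38.4 to 47.2 in sham (median 39.9) and from 48.9 to 59.6 in UNx (median 51.8). The groups did not overlap, and the log2 fold change was 0.37 ± 0.06 (SE, n = 6 per group, edgeR adjusted p = 0.000949, 0.105 with the covariate). Rbfox1 had CPM from 1.73 to 2.62 in sham (median 2.41) and from 0.423 to 1.75 in UNx (median 1.08). It fell by 1.06 ± 0.25 (edgeR adjusted p = 0.00567), with a small overlap of the groups and an adjusted p of 0.0879 with the covariate. Stk32a fell from 9.63 ± 1.94 to 6.93 ± 1.18 CPM (SD), a log2 difference of -0.47 ± 0.14 with overlapping groups (edgeR adjusted p = 0.0199, 0.152 with the covariate).

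Sema5a was the leading gene whose call at 24 h held with the covariate. It went from 57.4 ± 5.91 to 48.7 ± 4.00 CPM, a log2 difference of -0.24 ± 0.07 (edgeR adjusted p = 0.0287), and of -0.38 with the covariate (adjusted p = 0.0380). Fst had CPM from 2.67 to 10.8 in sham (median 6.69) and from 3.50 to 12.1 in UNx (median 6.30), a log2 difference of 0.06 ± 0.31 with overlapping groups. Cdh13 differed by 0.08 ± 0.14, Ackr3 by -0.20 ± 0.11 and Slc4a11 by -0.05 ± 0.24, none of them called.

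At 48 h, 1 of 18 was called higher and 4 lower, when 16.9% of 14280 genes were called higher and 16.0% lower, 32.9% together. Fst had CPM from 1.96 to 10.8 in sham (median 5.02) and from 1.26 to 3.91 in UNx (median 3.20), and fell by 1.02 ± 0.37 (edgeR adjusted p = 0.0466), a call also lost with DESeq2's size factors (0.0513). The other genes were Rassf8 (-0.28), Sema5a (-0.36) and Gna13 (-0.38) on the lower side and Dio1, a deiodinase of thyroid hormone, on the higher (0.48). Gna13 therefore had opposite signs at 24 h and 48 h. No gene of the table was called with the covariate, which nearly coincides with the group at 48 h, so the share and the surgery cannot be told apart there. With the covariate the 5 differences kept their signs, at -0.69 for Fst, -0.12 for Rassf8, -0.50 for Sema5a, -0.13 for Gna13 and 0.14 for Dio1. Aqp1 went from 903 ± 59.1 to 622 ± 45.9 CPM (-0.54 ± 0.07, edgeR adjusted p = 0.000353), and with the covariate its adjusted p was 0.321.

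At 72 h no leading gene of 18 tested was called, when 1.21% of 14556 genes were called higher and 0.502% lower. Fst was at 4.03 ± 0.724 CPM in sham and 4.97 ± 1.74 in UNx, and Rbfox1 at 1.35 ± 0.378 and 0.995 ± 0.276 CPM. Aqp1 differed by -0.15 (adjusted p = 0.113) at 24 h and -0.19 (adjusted p = 0.205) at 72 h.

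**Figure D5:**
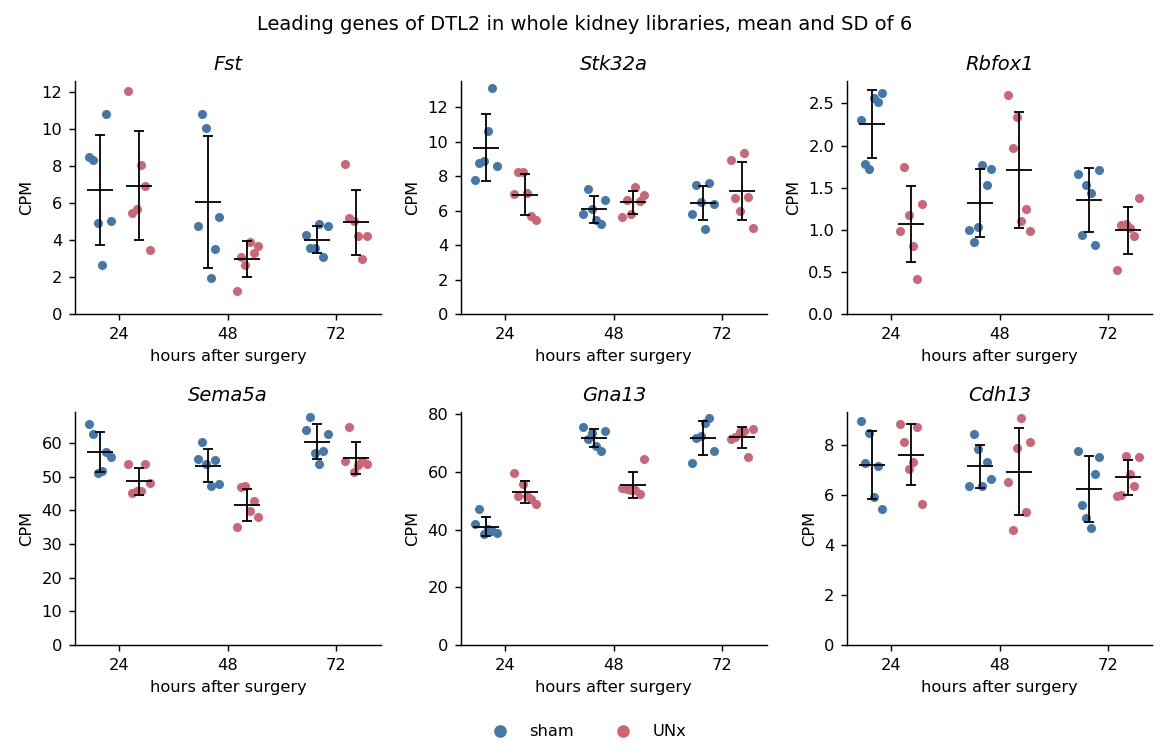
CPM of 6 leading genes in the 36 bulk libraries at 24, 48 and 72 h, one point per library with mean ± SD of each group of 6. Gna13 is higher in UNx at 24 h and lower at 48 h, and Fst spreads widely in sham at 24 h and 48 h.

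The 24 genes with the lowest p in DTL2 were also read in bulk. Of the 12 on the higher side, 1 was called higher and 1 lower at 24 h, 3 higher at 48 h and 1 lower at 72 h, beside 27.3%, 32.9% and 1.71% of all genes called in either direction. Adamts9 went from 15.8 to 18.3 CPM at 24 h (0.21, edgeR adjusted p = 0.0450), and Pitpnc1, a lipid transfer protein, went the other way, from 77.1 to 60.4 CPM (-0.35, edgeR adjusted p = 0.00109). Pitpnc1 was lower at 72 h too (-0.35, edgeR adjusted p = 0.0138). Errfi1, Ddah1 and Caprin1 were called higher at 48 h, by 0.37, 0.41 and 0.19, and none of them was called with the covariate. Of the 11 tested on the lower side, Foxj3 alone was called, at 24 h (-0.28, edgeR adjusted p = 0.00891, 0.192 with the covariate). Runx1 differed by 0.22 ± 0.29 at 24 h (adjusted p = 0.603).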

How the data were processed

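Nuclei came from 4 mice (sham 1 and UNx 1 in batch 3, sham 2 and UNx 2 in batch 4) and bulk RNA from 36 others, all grouped by the labels. The deposited tables hold estimated counts that the authors did not normalize; the submitters' processing notes name alevin, Seurat and mm10 for nuclei, and FastQC 0.11.8, Salmon 1.5.0, R 4.10 and GRCm39 for bulk. Of the nucleus values above 0, 13.9% are not whole. Counts were summed per mouse and class, rounded, and tested with edgeR 4.0.16 in R 4.3.3 (quasi-likelihood, filterByExpr, TMM, two-sided, Benjamini-Hochberg adjusted p under 0.05); DESeq2 1.42.0 and limma 3.58.1 were alternatives. Class names are the authors'. Coordinates come from GENCODE M21 (GRCm38), which also gave symbols for 28340 of 28467 bulk genes. P-values of UNx against sham rest on the spread between mice. Class differences take the mouse as a block, so their p-values rest on how the contrast of 2 classes varies between mice. With the batch block as well, they rest mainly on a spread shared over genes.

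The members, gene lists and tests were chosen with earlier results of these data known. Named genes were the 20 leading genes, up to 12 per direction without overlap (called genes by size, otherwise by lowest p, mean log2 CPM of at least 4, predicted genes passed over), the gene with the lowest p of each of 18 lists, and 2 genes per direction in each class difference. Genes named beyond that rule (calls made only with the block, calls in bulk, marker levels) were chosen after their values were seen. Pairing by batch comes from the labels; deviations from group means correlated at 0.493 across 4817 genes within batches. The edgeR fits of the DTL2 sums and of bulk at 24 h were tested on simulated counts, and the class differences were not. The simulated DTL2 dispersion (spread beyond counting error) was near that of the block fit (0.039) and below that of the main fit (0.175).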

Additional observations from a re-analysis of the deposited data

Results flagged for a closer look

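Of 48 bulk groups of 6 libraries checked for DTL2 genes, 5 held a library far from the others by Dixon's criterion, when chance gives about 1 group in 20. For Rassf8, sham replicate 3 at 24 h was low at 33.6 CPM (next 41.3), and UNx replicate 6 at 48 h was high at 37.3 CPM (next 33.8). That UNx library was also the one with a mitochondrial share of 15.2% while the other 5 had at least 25.8%. For Slc4a11, UNx replicate 6 at 72 h had 25.5 CPM (next 7.88). For Slc14a2, sham replicate 5 at 72 h had 118.5 CPM (next 64.1) and UNx replicate 6 had 172 CPM (next 67.1), so UNx replicate 6 stood apart for both Slc4a11 and Slc14a2.

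In the nuclei, 6 genes had an effect of UNx in DTL2 that differed from that in other nuclei by a test of the difference (edgeR quasi-likelihood, adjusted p from 0.0174 to 0.0489). Against DTL3-ATL they were Runx1 (4.47 on the log2 scale) and Gm42397 (3.47). Against all other nuclei they were Keg1 (2.45), Slc5a12 (2.84), Aoah (12.54) and St8sia1 (12.72). The values of Aoah and St8sia1 come from sham sums of 0 and are no bound on a fold change. None of the 6 calls held without sham 2, without the large nucleus of UNx 2 or with DESeq2's test.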

How the results depend on the processing

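For UNx against sham in DTL2, no filter on low counts gave 1 call and DESeq2 with the replicate block 1, leaving out 1 mouse gave 0 to 25, and the other alternatives gave 0, the replicate block among them. For the differences from DTL1, DTL3-ATL, ATL and all other nuclei, in this order, no filter gave 8, 7, 2 and 0 calls, the replicate block 22, 11, 4 and 12, and leaving out the large nucleus with the replicate block 3, 9, 3 and 8. Leaving out the large nucleus alone gave 0 for DTL3-ATL and 1 for all other nuclei, and DESeq2's test gave 0 for both. DESeq2's size factors gave 0 for DTL3-ATL. Leaving out 1 mouse gave 0 to 36, 0 to 42, 0 to 7 and 0 to 21 calls. Dock10 against all other nuclei was 8.60 without sham 2 and -13.05 without UNx 1. The ratio of DTL2 shares ran from 0.794 to 1.79, and 15 to 19 leading genes were kept, when 1 mouse was left out. The leave-outs of large nuclei and DESeq2 with the block were chosen after seeing the data. Large nuclei were left out of the DTL2 sums only, not of the other classes.

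In bulk, the covariate left 677 calls of 3852 at 24 h and 0 of 4696 at 48 h, where it nearly coincides with the group. Leaving out UNx replicates 1 to 5 gave 0 there, but sets 1 UNx library against 6 sham libraries, with the spread taken from sham, and so says little on these calls. At 72 h, 249 calls became 664 with DESeq2 and 120 with the replicate block. Same-numbered pairs correlated there from -0.34 to 0.14, with 3 of 6 above 0.1, so a pairing by number was not clear. The cause of these changes was not tested. Depth limits DTL2: its 4 sums held 84624 to 294794 UMI, 4817 genes were tested, and their median SE was 0.58 on the log2 scale, and 0.50 with the replicate block.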
